A study of Homo sapiens with 18 samples.

Results

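The heat shock chaperones described here were 10 genes, HSPA8, HSPA1A, HSPA1B, DNAJB1, HSP90AA1, HSPH1, BAG3, HSPB1, HSPE1 and HSPD1. They are 10 of the 20046 genes with a probe of their own on the array. They were chosen by gene symbol, and every probe that the platform annotation pairs with 1 of these symbols was taken, which gave 17 of the 47231 probes. Transcript levels were measured on 18 Illumina bead arrays of biotin-labelled cRNA from the established human endometrial cancer lines Hec-1A (adenocarcinoma) and RL95-2 (adenosquamous carcinoma). Each line was labelled Control IgG, PDGFAA, or PDGFAA+3G3-1, and each of the 6 groups held 3 arrays. PDGF-AA binds and activates PDGFRA, the alpha receptor for platelet-derived growth factor, and 3G3 is an antibody against PDGFRA, whose blockade in uterine cancer the series is about. The labels give no dose, no duration, no meaning for the ending "-1" and no genetic change in either line, and each line is a single tumour's cells. An antibody is named for the control arrays and none for the arrays with PDGF-AA alone, so the effects of adding the ligand and of leaving out the control antibody cannot be told apart.

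Heat shock chaperones bind unfolded or partly folded proteins, keep them from clumping and help them fold, and many are switched on by heat and other stress through the transcription factor HSF1, which binds inverted repeats of the letters NGAAN called heat shock elements. HSP70 proteins (HSPA8, HSPA1A, HSPA1B) hold clients in a cycle driven by ATP, in which J-domain partners such as DNAJB1 start ATP use and exchange factors such as HSPH1 and BAG3 release the nucleotide. HSP90 (HSP90AA1) takes over later clients, among them kinases and steroid receptors, HSPB1 is a small heat shock protein that holds clients without ATP, and HSPD1 with its lid HSPE1 forms the folding chamber of mitochondria.

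All 17 probes passed the filter on dim signals, a value above the array's own median on at least 3 arrays, as did 32070 of the 47231 probes. Values are the authors' log2 expression values, in which the median of each array was 6.64, and fold changes are differences on that scale ± SE. A gene was called where the adjusted p of limma, by Benjamini-Hochberg over all 32070 probes, was below 0.05. Where a gene has several probes, the leading probe is the one with the highest mean over 18 arrays, and the gene is counted by it. The labels do not say that the 3 replicates of a group were separate cultures, and every p therefore reflects the spread between arrays that may be technical repeats. In bulk RNA, fewer cells with a transcript and less of it per cell cannot be told apart. The number of arrays limits the precision, and the median half-width of a 95% interval for a difference of 2 groups was 0.16. Hec-1A control IgG replicate 1 and Hec-1A PDGF-AA replicate 1 shared the lowest correlation within a line, 0.945. Of these, the control array lay further out on the leading component of deviations from group means in Hec-1A, at 39.6 against -10.2. Results that rest on the control array are given with and without it. Epithelial markers KRT8, KRT18, KRT19, EPCAM and CDH1 lay above the array median on all 18 arrays. Of 11 leukocyte, endothelial and fibroblast markers only CD68 and ACTA2 did so. COL1A1 did on 17 arrays, CDH5 on 9, DCN on 8 and CD14 on 7. PECAM1 and COL3A1 did on 5 each, PTPRC on 3, CD3E on 1 and VWF on 0. CDH5 ranged from 7.05 to 7.38 in RL95-2 and from 6.35 to 6.59 in Hec-1A.

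The promoters are shown first, because heat shock elements are what these genes are known to share. Windows from 250 bases before to 50 bases after an annotated start were read from RefSeq on GRCh38.p14, and 14 such windows matched the 10 genes. Elements of 2 units were searched as GAANNTTC or TTCNNGAA, patterns that each read the same on both strands, and they occurred in 8 of the 14 windows and in 7 of the 10 genes. Among all 35116 windows given, 13.5% held that element. A 3-unit element, TTCNNGAANNTTC or its reverse complement GAANNTTCNNGAA, which contains the shorter one, occurred in 1 window each of HSPA8, HSP90AA1 and HSPD1 and in 0.49% of all windows. The windows of HSPH1, BAG3 and HSPE1 held neither letter pattern, which says nothing of what binds there. Capitals mark the elements, and each line gives the sense strand, which reads like the transcript, 5′ to 3′. The full promoters of HSPB1, on chromosome 7, and of HSPA8, on chromosome 11, belong to the genes with the largest fold changes between the lines on their leading probes in either direction under control IgG.
HSPB1, chr7:76302423-76302722, plus strand: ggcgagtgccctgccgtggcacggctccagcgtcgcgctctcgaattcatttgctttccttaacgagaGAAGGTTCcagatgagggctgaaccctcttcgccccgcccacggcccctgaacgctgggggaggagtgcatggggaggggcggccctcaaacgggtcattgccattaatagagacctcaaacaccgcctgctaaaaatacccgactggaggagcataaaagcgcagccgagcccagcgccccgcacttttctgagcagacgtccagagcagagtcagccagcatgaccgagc
HSPA8, chr11:123062087-123062386, minus strand: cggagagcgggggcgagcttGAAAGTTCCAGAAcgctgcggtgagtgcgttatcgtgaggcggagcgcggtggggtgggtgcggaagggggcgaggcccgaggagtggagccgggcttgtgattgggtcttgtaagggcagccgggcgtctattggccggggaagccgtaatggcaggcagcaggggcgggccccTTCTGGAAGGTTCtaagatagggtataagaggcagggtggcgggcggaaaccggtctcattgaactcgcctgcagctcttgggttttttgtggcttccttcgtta

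HSPA1A and HSPA1B are neighbouring copies on chromosome 6 that encode nearly the same protein. Their promoter windows were identical in 277 of 301 aligned columns (92%), and both carry GAATATTC. They are printed whole because the array has 1 probe for each gene. The probe sequences were not used here, and whether a probe tells the copies apart was not tested.
HSPA1A, chr6:31815293-31815592, plus strand: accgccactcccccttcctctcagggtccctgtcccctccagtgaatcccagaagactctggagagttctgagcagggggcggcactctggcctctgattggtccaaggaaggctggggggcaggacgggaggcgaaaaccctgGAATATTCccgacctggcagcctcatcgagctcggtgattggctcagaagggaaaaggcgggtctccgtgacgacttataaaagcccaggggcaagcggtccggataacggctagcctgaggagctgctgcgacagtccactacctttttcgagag
HSPA1B, chr6:31827488-31827787, plus strand: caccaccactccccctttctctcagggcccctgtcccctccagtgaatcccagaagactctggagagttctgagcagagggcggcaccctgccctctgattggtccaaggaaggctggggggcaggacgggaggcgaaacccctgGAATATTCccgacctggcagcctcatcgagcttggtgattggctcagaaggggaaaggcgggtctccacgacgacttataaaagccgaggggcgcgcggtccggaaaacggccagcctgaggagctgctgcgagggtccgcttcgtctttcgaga

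Short windows show the other elements found, each with 6 bases on both sides except where the promoter window begins. The element of HSPD1 is a run of overlapping units, and that of HSP90AA1 holds a 3-unit and a 2-unit element close together. An annotated start of HSPD1 lies 105 bases from that of HSPE1, on opposite strands of chromosome 2. The window of that HSPD1 start held no element. The HSPD1 element printed here comes from the window of another HSPD1 start.
HSPD1, chr2:197500062-197500090, minus strand: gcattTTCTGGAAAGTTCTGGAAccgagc
HSP90AA1, 3-unit: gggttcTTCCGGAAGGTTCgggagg
HSP90AA1, 2-unit: ggaggcTTCTGGAAaaagcg
DNAJB1, first: ggggcgGAAGGTTCtggagg
DNAJB1, second: gctctgGAAGCTTCcgccgg
DNAJB1, from another start: cggccaGAAGCTTCtagcat

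The cell lines differed in several of these genes, in both directions, and the chaperones did not move as a block. HSPB1, HSPA1B and BAG3 were lower in Hec-1A than in RL95-2 under all 3 treatments, by about 8.67-fold, 2.25-fold and 2.3-fold under control IgG. HSPA8, the constitutive HSP70, was 2.56-fold higher in Hec-1A under control IgG, and its difference did not pass under PDGF-AA or PDGF-AA + 3G3. Under control IgG 7 of the 10 genes were called, 3 higher in Hec-1A (HSPA8, HSP90AA1 and HSPD1) and 4 lower (HSPA1B, DNAJB1, BAG3 and HSPB1), where 35.6% of all tested probes were called. Under PDGF-AA 4 genes were called, HSP90AA1 higher and HSPA1B, BAG3 and HSPB1 lower, against 28% of all probes. Under PDGF-AA + 3G3 the same 4 genes were called in the same directions, against 28.6%. HSP90AA1 is counted by its leading probe, and another of its probes, ILMN_1687546, was called lower in Hec-1A under all 3 treatments. The median log2 difference of the 10 genes was 0.00, -0.28 and -0.18 in that order, beside 0.00, 0.01 and 0.01 over all tested probes. Without Hec-1A control IgG replicate 1 the counts were 6, 6 and 5. The share of all probes called in that fit is not given here, so the change in counts is not read as one of the chaperones. The plot of leading probes gives each array.

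**Figure D1:**
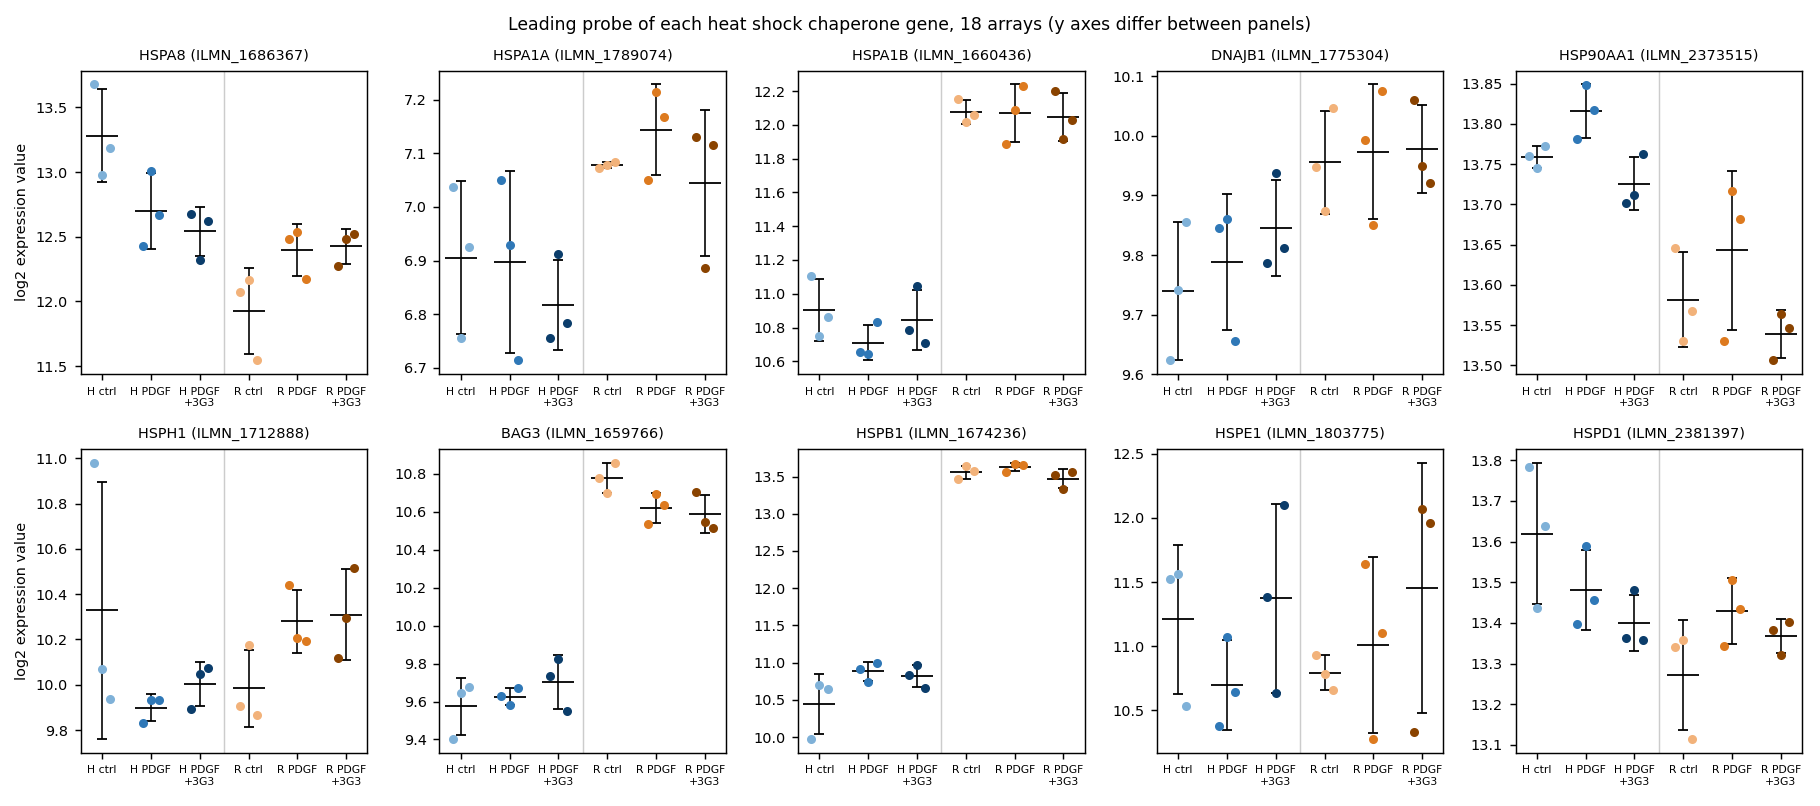
Log2 expression value of the leading probe of each of the 10 genes, 1 point per array, in the 6 groups of 3 arrays, with bars for the mean ± SD; y axes differ between panels. HSPB1, HSPA1B and BAG3 separate the lines on every array, while HSPE1 spreads widely within groups and 1 Hec-1A control IgG array of HSPH1 lies at 10.98.

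HSPB1, the small heat shock protein that holds unfolding clients and binds actin, differed most. In Hec-1A its log2 values were 9.98, 10.70 and 10.65 under control IgG, 10.92, 10.74 and 10.99 under PDGF-AA, and 10.84, 10.96 and 10.67 under PDGF-AA + 3G3. In RL95-2 they were 13.46, 13.64 and 13.58, then 13.56, 13.67 and 13.65, then 13.53, 13.33 and 13.56. The highest Hec-1A array thus lay below the lowest RL95-2 array by more than the whole range of either line. The log2 difference was -3.12 ± 0.14 under control IgG (limma adjusted p = 3.21e-11), -2.74 ± 0.14 under PDGF-AA (1.8e-10) and -2.65 ± 0.14 under PDGF-AA + 3G3 (2.91e-10), and in the first of these the probe ranked 461 of 32070 by p. Hec-1A control IgG replicate 1 was the lowest of the 18 arrays, 0.69 below the mean of its other replicates on the log2 scale. Without it the difference under control IgG was -2.89 ± 0.09. PDGF-AA against control IgG in Hec-1A gave 0.44 ± 0.14 with adjusted p = 0.123, and 0.21 ± 0.09 without that array (0.51).

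HSPA8, the HSP70 that cells make without stress, was led by ILMN_1686367. In Hec-1A its log2 values were 13.68, 12.98 and 13.19 under control IgG, 12.43, 13.01 and 12.67 under PDGF-AA, and 12.68, 12.32 and 12.62 under PDGF-AA + 3G3. The RL95-2 values, in the same order, were 12.07, 12.16 and 11.54, then 12.49, 12.54 and 12.17, then 12.27, 12.49 and 12.52. Hec-1A control IgG was the highest group and RL95-2 control IgG the lowest, and the 4 groups with PDGF-AA lay between them with overlapping ranges. The log2 difference between the lines was 1.36 ± 0.19 under control IgG (limma adjusted p = 2.88e-05), 0.30 ± 0.19 under PDGF-AA (0.298) and 0.12 ± 0.19 under PDGF-AA + 3G3 (0.749). The other probe, ILMN_2413084, gave 1.44 ± 0.19, 0.19 ± 0.19 and 0.33 ± 0.19, of which the first passed (1.5e-05), and its 18 values correlated with those of the leading probe at r = 0.970. Without Hec-1A control IgG replicate 1, which lay 0.60 above its other replicates, the difference under control IgG was 1.16 ± 0.18 (6.25e-05).

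Within the lines the HSPA8 means moved in opposite directions, and no such change passed. PDGF-AA against control IgG gave -0.58 ± 0.19 in Hec-1A (limma adjusted p = 0.126) and 0.47 ± 0.19 in RL95-2 (0.861). PDGF-AA + 3G3 against control IgG gave -0.74 ± 0.19 in Hec-1A (0.0692) and 0.50 ± 0.19 in RL95-2 (0.473). In RL95-2 every array with PDGF-AA, with or without 3G3, lay above all 3 control arrays. In Hec-1A every array with PDGF-AA + 3G3 lay below all 3 control arrays, while PDGF-AA replicate 2 lay above control replicate 2. The test of the difference between the lines gave -1.05 ± 0.27 for PDGF-AA (0.133) and -1.24 ± 0.27 for PDGF-AA + 3G3 (0.08), and for ILMN_2413084 -1.24 ± 0.27 (0.133) and -1.11 ± 0.27 (0.08). Both comparisons with the control share the control arrays. Without Hec-1A control IgG replicate 1 the leading probe gave -0.85 ± 0.24 (0.188) and -1.04 ± 0.24 (0.0881). Both passed without Hec-1A control IgG replicate 2, at -1.20 ± 0.27 (0.0302) and -1.39 ± 0.27 (0.015), and without RL95-2 PDGF-AA + 3G3 replicate 1 that for PDGF-AA + 3G3 did, at -1.32 ± 0.29 (0.045). They also passed with array weights (0.015 and 0.00604).

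HSPA1A and HSPA1B are the stress-induced HSP70 genes, and the levels of their probes are not compared with each other. HSPA1B in Hec-1A gave log2 values of 11.11, 10.75 and 10.86 under control IgG, 10.66, 10.64 and 10.83 under PDGF-AA, and 10.78, 11.04 and 10.71 under PDGF-AA + 3G3. The RL95-2 arrays gave 12.15, 12.01 and 12.06, then 11.89, 12.09 and 12.23, then 12.20, 11.92 and 12.03. The lines did not overlap on any array, and within a line the treatments did. The log2 difference was -1.17 ± 0.11, -1.36 ± 0.11 and -1.20 ± 0.11 under the 3 treatments, with limma adjusted p of 3.13e-07, 5.68e-08 and 2.52e-07. The HSPA1A probe read close to the array median, from 6.71 to 7.05 in Hec-1A and from 6.89 to 7.21 in RL95-2. Its differences of -0.17 ± 0.09, -0.25 ± 0.09 and -0.23 ± 0.09 did not pass (0.171, 0.0552 and 0.0776). Without Hec-1A control IgG replicate 1 the difference under PDGF-AA passed at the same size (0.0355), and it passed in 10 of 29 alternatives. No background was subtracted, so a fold change of so dim a probe is understated.

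Among the partners of HSP70, BAG3 followed the direction of HSPB1, DNAJB1 changed little and HSPH1 turned on 1 array. BAG3, which links HSP70 to small heat shock proteins and to autophagy, had log2 values in Hec-1A of 9.40, 9.65 and 9.68 under control IgG, 9.63, 9.58 and 9.67 under PDGF-AA, and 9.74, 9.82 and 9.55 under PDGF-AA + 3G3. In RL95-2 they were 10.78, 10.70 and 10.86, then 10.54, 10.70 and 10.64, then 10.70, 10.54 and 10.52. No Hec-1A array reached any RL95-2 array. The log2 difference was -1.20 ± 0.08, -0.996 ± 0.08 and -0.89 ± 0.08, with limma adjusted p of 6.46e-09, 7.75e-08 and 3.25e-07.

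DNAJB1, the J-domain partner known as HSP40, ranged from 9.62 to 9.94 in Hec-1A and from 9.85 to 10.07 in RL95-2. Its log2 difference of -0.22 ± 0.08 under control IgG passed narrowly (limma adjusted p = 0.0449), and -0.19 ± 0.08 and -0.13 ± 0.08 did not (0.102 and 0.269). Without Hec-1A control IgG replicate 1 the call ended, at -0.16 ± 0.08 (0.189). It also ended under most other settings, and without normalization between arrays the value was 0.00724 ± 0.15 (0.973).

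HSPH1, a nucleotide exchange factor of the HSP110 family, had log2 values in Hec-1A of 10.98, 10.07 and 9.94 under control IgG, 9.83, 9.93 and 9.93 under PDGF-AA, and 9.89, 10.05 and 10.07 under PDGF-AA + 3G3. Those of RL95-2 were 9.91, 10.18 and 9.87, then 10.44, 10.21 and 10.19, then 10.12, 10.29 and 10.52. Hec-1A control IgG replicate 1 lay 0.98 above its other replicates, the other Hec-1A arrays kept within 9.83 to 10.07, and the lines did not overlap under PDGF-AA or PDGF-AA + 3G3. The log2 difference between the lines was 0.35 ± 0.19, -0.38 ± 0.19 and -0.30 ± 0.19, and none passed (limma adjusted p = 0.201, 0.176 and 0.299). Without that array it was 0.02 ± 0.11, -0.38 ± 0.10 and -0.30 ± 0.10, and the last 2 passed (0.00691 and 0.0284), with the SE, which all 6 groups share, smaller. The difference under control IgG passed without Hec-1A control IgG replicate 3, at 0.54 ± 0.19 (0.0398).

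**Figure D2:**
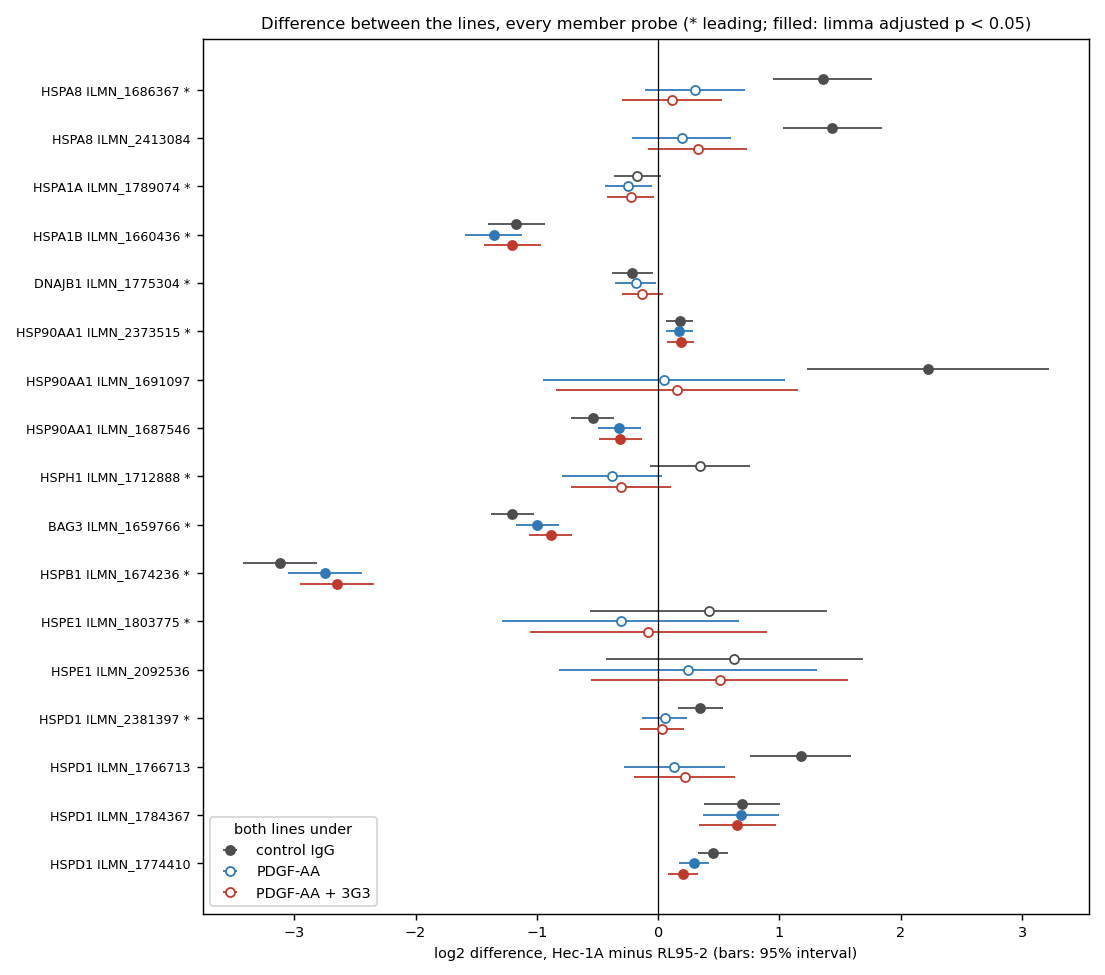
Log2 difference, Hec-1A minus RL95-2, of each of the 17 probes under the 3 treatments, with 95% intervals and filled points where the limma adjusted p was below 0.05. HSPB1, HSPA1B and BAG3 lie left of 0 under all 3 treatments, and both HSPA8 probes lie far right of 0 under control IgG only.

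HSP90AA1, the inducible cytosolic HSP90, gave 3 probes that did not agree. The leading probe, ILMN_2373515, ranged from 13.70 to 13.85 in Hec-1A and from 13.51 to 13.72 in RL95-2, near the highest value of the whole table, 14.095, where signals have little room to differ. Its log2 difference was 0.18 ± 0.05, 0.17 ± 0.05 and 0.19 ± 0.05 under the 3 treatments, and all passed (limma adjusted p = 0.013, 0.0193 and 0.0116). The direction turned under control IgG to -0.03 ± 0.10 when arrays were scaled to a common median (0.87). The call ended in 6 of 30 alternatives under control IgG, 8 under PDGF-AA and 5 under PDGF-AA + 3G3. Under PDGF-AA it was 0.12 ± 0.05 (0.121) without RL95-2 PDGF-AA replicate 1 and 0.16 ± 0.06 (0.07) without Hec-1A PDGF-AA replicate 2, and under control IgG it was 0.15 ± 0.06 (0.0592) without RL95-2 control IgG replicate 2. ILMN_1687546, which the annotation assigns to another transcript of the gene, ranged from 7.02 to 7.48 in Hec-1A and from 7.55 to 7.84 in RL95-2. It passed the other way, at -0.54 ± 0.08, -0.32 ± 0.08 and -0.31 ± 0.08 (6.57e-05, 0.0075 and 0.00902), and correlated with the leading probe over the 18 arrays at r = -0.777.

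ILMN_1691097, assigned to that other transcript too, was the most variable of the 3 HSP90AA1 probes. In Hec-1A its log2 values were 13.84, 12.49 and 12.36 under control IgG, 10.79, 12.27 and 11.62 under PDGF-AA, and 11.76, 11.19 and 12.43 under PDGF-AA + 3G3. The RL95-2 arrays gave 10.73, 11.001 and 10.29, then 11.93, 11.48 and 11.14, then 10.69, 12.13 and 12.10. As for HSPA8, the control IgG groups were the highest and the lowest of the 6, and the 4 others overlapped. The line difference was 2.22 ± 0.47 under control IgG (limma adjusted p = 0.00119), 0.05 ± 0.47 under PDGF-AA (0.966) and 0.15 ± 0.47 under PDGF-AA + 3G3 (0.872), and without Hec-1A control IgG replicate 1 the first was 1.75 ± 0.44 (0.00456). PDGF-AA against control IgG gave -1.34 ± 0.47 in Hec-1A (0.135), and the difference of that effect between the lines was -2.18 ± 0.66 (0.139).

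The mitochondrial pair gave a small difference in the leading HSPD1 probe, close to the top of the range, and wide spread in HSPE1. HSPD1, the mitochondrial chaperonin, was led by ILMN_2381397, with log2 values in Hec-1A of 13.78, 13.44 and 13.64 under control IgG, 13.40, 13.59 and 13.46 under PDGF-AA, and 13.36, 13.48 and 13.36 under PDGF-AA + 3G3. In RL95-2 they were 13.34, 13.36 and 13.12, then 13.34, 13.51 and 13.43, then 13.38, 13.32 and 13.40. The lines were apart under control IgG and overlapped under the other treatments. The log2 difference was 0.35 ± 0.09 (limma adjusted p = 0.00403), 0.05 ± 0.09 (0.741) and 0.03 ± 0.09 (0.855), and without Hec-1A control IgG replicate 1 the first was 0.27 ± 0.09 (0.0232).

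The other 3 HSPD1 probes were also higher in Hec-1A under control IgG. ILMN_1766713 gave 1.17 ± 0.20 (limma adjusted p = 0.00014), then 0.13 ± 0.20 (0.712) and 0.22 ± 0.20 (0.493), a pattern of calls like that of the leading probe, with which it correlated at r = 0.866. ILMN_1784367 passed under all 3 treatments, at 0.69 ± 0.15, 0.68 ± 0.15 and 0.65 ± 0.15. ILMN_1774410, a dim probe, passed under all 3 as well, at 0.45 ± 0.06, 0.30 ± 0.06 and 0.21 ± 0.06. No RL95-2 array under control IgG or PDGF-AA lay above the array median, so this probe met the filter through Hec-1A. Its calls therefore add no further support. Its RL95-2 means of 6.50 and 6.60 under control IgG and PDGF-AA were at or below the array median, so those differences are bounds, at least 1.24-fold and at least 1.19-fold higher in Hec-1A. Thus under PDGF-AA and PDGF-AA + 3G3 the HSPD1 probes disagreed on whether the lines differed. For ILMN_1766713, PDGF-AA against control IgG in Hec-1A gave -0.81 ± 0.20 (0.109), the smallest unadjusted p of the 17 probes in that comparison, and -0.52 ± 0.15 (0.32) without Hec-1A control IgG replicate 1.

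HSPE1, the lid of the mitochondrial chamber, varied widely between replicates. ILMN_1803775, its leading probe, read 11.53, 11.56 and 10.54 in Hec-1A under control IgG, 10.38, 11.07 and 10.64 under PDGF-AA, and 11.38, 10.63 and 12.10 under PDGF-AA + 3G3. In RL95-2 it read 10.93, 10.78 and 10.66, then 11.64, 10.28 and 11.10, then 10.32, 12.07 and 11.96. Every pair of groups next to each other in the order of means overlapped, and the SD within a group reached 0.98. The log2 difference between the lines was 0.42 ± 0.46, -0.31 ± 0.46 and -0.08 ± 0.46 (limma adjusted p = 0.562, 0.71 and 0.935), with 95% intervals of -0.56 to 1.39, -1.29 to 0.66 and -1.06 to 0.89, each of which includes 0. ILMN_2092536 gave 0.63 ± 0.50, 0.25 ± 0.50 and 0.51 ± 0.50, and none passed.

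**Figure D3:**
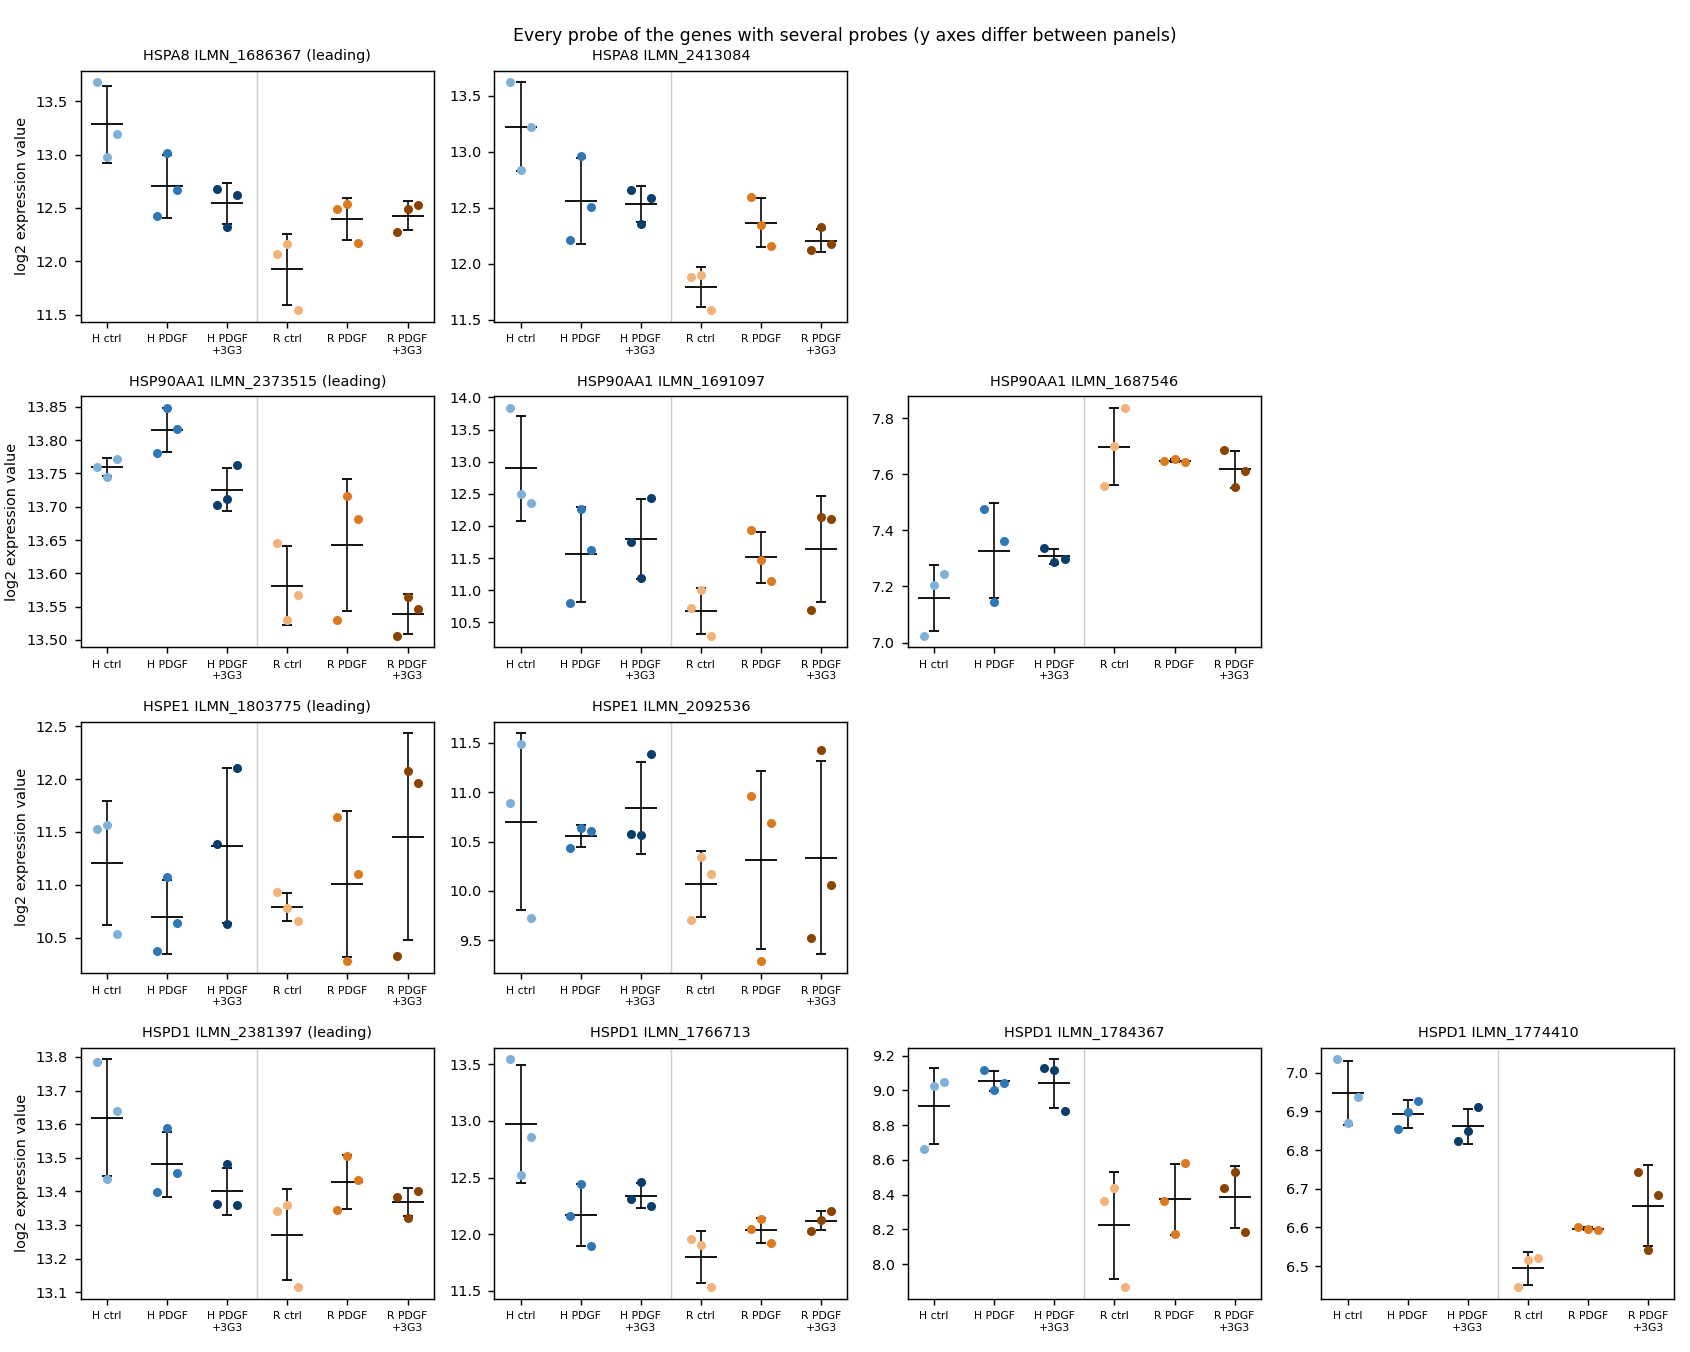
Log2 expression value by group for every probe of HSPA8, HSP90AA1, HSPE1 and HSPD1, the genes with several probes, 1 point per array (H, Hec-1A; R, RL95-2), with bars for the mean ± SD; y axes differ between panels. The HSPA8 probes repeat each other, while HSP90AA1 ILMN_1687546 places RL95-2 above Hec-1A and the leading probe places it below.

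No chaperone gene passed for any treatment. In each of the 6 treatment comparisons, which set either treatment against control IgG, or the treatment with 3G3 against that without, in each line, limma called 0 of the 10 genes and 0 of the 17 probes. Of all tested probes 0%, 0% and 0.00312% were called in Hec-1A for PDGF-AA over control IgG, for 3G3 added to PDGF-AA, and for both agents over control IgG, in that order. In RL95-2 the shares were 0.00624%, 0.00312% and 0%. At an unadjusted p under 0.05, there were 3, 0 and 3 of the 10 genes in Hec-1A, beside 21%, 4.08% and 20.5% of all tested probes, and 1, 0 and 2 in RL95-2, beside 5.68%, 3.16% and 9.41%. In the tests of whether an effect differed between the lines 0 genes were called for PDGF-AA (0.00312% of all probes), for 3G3 (0%) and for PDGF-AA + 3G3 (0%), and 3, 0 and 5 genes had an unadjusted p under 0.05, beside 19.9%, 2.77% and 21.6% of all tested probes. Calls in Hec-1A turned on single control arrays. Without control IgG replicate 2, which leaves replicate 1 and replicate 3 as its controls, HSPA8 and HSPB1 passed for PDGF-AA, at -0.73 ± 0.20 (adjusted p = 0.0332) and 0.57 ± 0.15 (0.026), and HSPA8, HSPB1 and HSPD1 for PDGF-AA + 3G3, while 3709 and 3900 of all probes were called. Without replicate 1 none of the 10 genes passed in either.

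**Figure D4:**
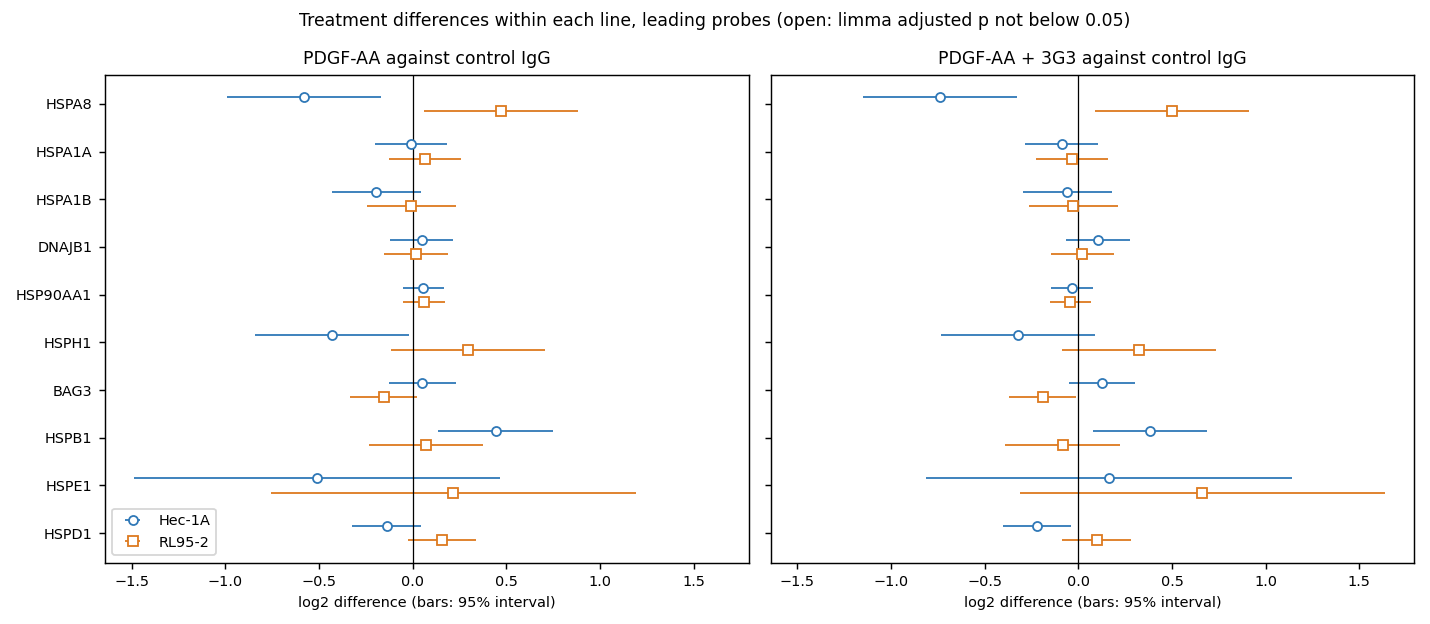
Log2 difference from control IgG of the 10 leading probes under PDGF-AA (left panel) and PDGF-AA + 3G3 (right panel) in each line, with 95% intervals; open points mark a limma adjusted p not below 0.05, which is the case for all of them. The intervals of HSPA8 lie left of 0 in Hec-1A and right of 0 in RL95-2 in both panels.

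Adding 3G3 to PDGF-AA gave no call, and 0 genes had an unadjusted p under 0.05 in either line. Over the leading probes the log2 difference ran from -0.16 to 0.67 in Hec-1A and from -0.16 to 0.45 in RL95-2, and in both lines HSPE1, the most variable gene, held the upper end. The smallest adjusted p of limma was 0.999 in Hec-1A and 1.00 in RL95-2. For HSPA8 the value was -0.16 with a 95% interval from -0.57 to 0.25 in Hec-1A and 0.03 with an interval from -0.38 to 0.44 in RL95-2. For HSPB1 it was -0.06 (interval -0.37 to 0.25) and -0.16 (interval -0.46 to 0.15).

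Single arrays deviated from their replicates in several chaperones. Hec-1A control IgG replicate 1 lay above the mean of its other replicates in 7 of the 10 leading probes, HSP90AA1 by only 0.0015. Such a count was not particular to it, as Hec-1A PDGF-AA replicate 2 also had 7 and RL95-2 PDGF-AA replicate 3 had 8. On Hec-1A control IgG replicate 1 the median of the 10 was 0.22, beside -0.0085 over all tested probes. HSPH1 was at 0.98 and HSPA8 at 0.60 on that array, and HSPB1 at -0.69 and BAG3 at -0.26. There, a list of 25 respiratory chain genes from the nucleus, written with earlier results of these data known, had a median of -1.16 against the remaining replicates, and the part of that shift in the chaperone values was not tested. The leading component of the deviations from group means held 60.4% of the variance in Hec-1A and 53.6% in RL95-2. Over 18 arrays, with deviations from group means, BAG3 ran against HSPE1 (r = -0.776), HSPH1 (r = -0.774) and HSPA8 (r = -0.674). These are descriptions of genes that share the RNA and hybridisation of each array. The r for HSPH1 and HSPB1 was -0.886 in Hec-1A and 0.157 in RL95-2.

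**Figure D5:**
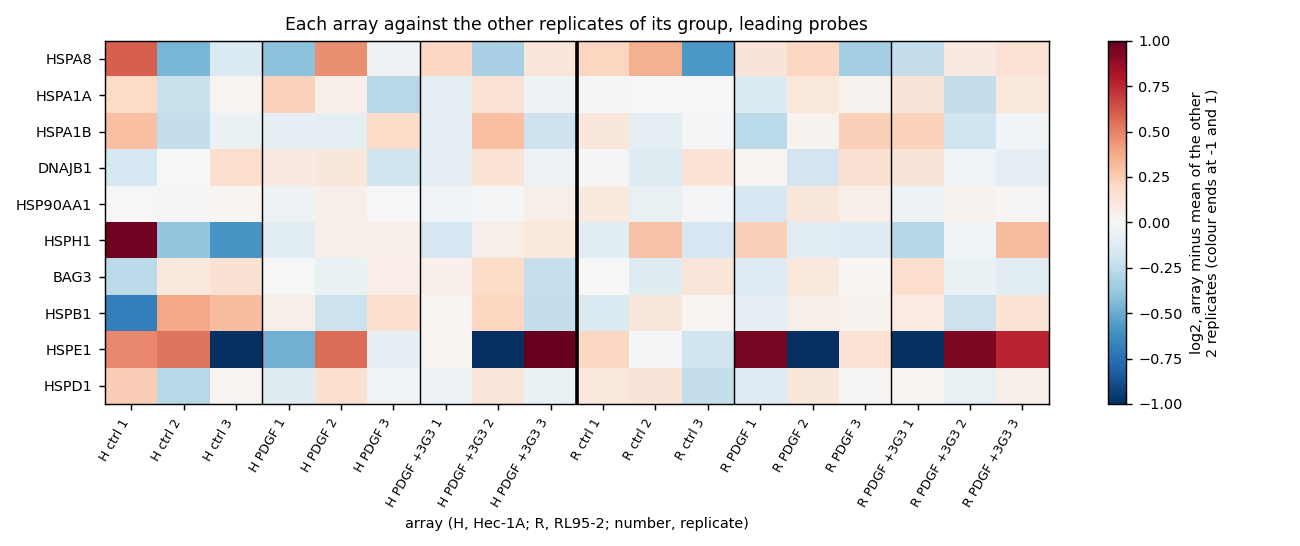
Leading probe of each of the 10 genes on each of the 18 arrays, as the log2 value minus the mean of the other 2 replicates of its group (red higher, blue lower, colours end at -1 and 1; H, Hec-1A; R, RL95-2). Hec-1A control IgG replicate 1 is highest for HSPH1 (0.98) and lowest for HSPB1 (-0.69), and HSPE1 deviates on most arrays of 5 groups.

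By the likeness of deviations from the group means over 18 arrays, 15350 genes were compared with HSP90AA1 and with HSPA1A. The 5 nearest to the leading probe of HSP90AA1 were RTP4, SYT3, CENPVL1, REG1A and MIR17HG, with r from 0.863 down to 0.781, and all 5 had a mean close to the array median. The 5 nearest to HSPA1A were GMNN, MOB1A, SLC27A2, SPRING1 and EFCAB5, with r from 0.877 to 0.839. The 10 chaperone genes themselves were left out of this search, and no gene of the other chaperone lists was among those named. These r values are the highest of 15350 for each gene, and none was tested.

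The wider chaperone network also split between the lines. Of 77 tested genes in 8 lists of other chaperones and partners, 27 were higher in Hec-1A and 15 lower under control IgG, 16 and 12 under PDGF-AA, and 22 and 14 under PDGF-AA + 3G3, by limma adjusted p. Of all tested probes 18.1% were higher and 17.5% lower under control IgG, 14.6% and 13.4% under PDGF-AA, and 14.7% and 13.9% under PDGF-AA + 3G3. The median log2 difference was 0.15, 0.07 and 0.01. Without Hec-1A control IgG replicate 1 the counts were 23 and 16, 22 and 14, and 25 and 17. None of the 77 passed in a treatment comparison. The lists were written with earlier results of these data known.

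By role, the cytosolic chaperonin, which folds actin and tubulin, had 6 of 8 subunits higher in Hec-1A under control IgG and 1 lower. CCT2 gave 1.55 ± 0.26, CCT8 1.11 ± 0.29 and CCT5 0.99 ± 0.13, while CCT7 was lower at -0.50 ± 0.12. Under PDGF-AA and PDGF-AA + 3G3 2 and 3 subunits were higher. Of 15 J-domain genes 7 were higher and 1 lower, led by DNAJA1 at 0.92 ± 0.09, DNAJB4 at 0.91 ± 0.16 and DNAJC7 at 0.84 ± 0.13, with DNAJC5 at -0.24 ± 0.07. Of 16 other HSP70 and exchange factor genes 6 were higher and 3 lower, among them HSPA4 at 1.72 ± 0.15, a relative of HSPH1, and ST13, an HSP70 cochaperone, at 0.49 ± 0.13, against BAG2 at -0.74 ± 0.07, BAG4 at -0.40 ± 0.09 and BAG6 at -0.35 ± 0.11. HSPA2 was at least 1.23-fold higher. Of 11 HSP90 genes 5 were higher and 1 lower, with CHORDC1, an HSP90 cochaperone, at 2.12 ± 0.21, HSP90AB1, the constitutive HSP90, at 0.75 ± 0.14 and TTC4 at 0.43 ± 0.12, against the immunophilin FKBP5 at -0.85 ± 0.10. All of these passed limma's test under control IgG.

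Most called endoplasmic reticulum genes were lower in Hec-1A, and the mitochondrial list was mixed. Of 10 endoplasmic reticulum chaperones 1 was higher and 5 were lower under control IgG, with SIL1, an exchange factor, at -1.37 ± 0.15, PDIA4, a disulphide isomerase, at -1.26 ± 0.11 and the collagen chaperone SERPINH1 at -0.91 ± 0.13, against the lectin chaperone CANX at 0.78 ± 0.15. Under PDGF-AA and PDGF-AA + 3G3 6 were lower in each, with 0 and 1 higher. Of 10 mitochondrial genes 2 were higher, HSPA9 at 0.61 ± 0.18 and CLPX at 0.58 ± 0.13, and 3 were lower, HTRA2 at -0.71 ± 0.11, CLPP at -0.63 ± 0.17 and TRAP1 at -0.57 ± 0.11. Under PDGF-AA 1 mitochondrial gene was higher and 1 lower, and under PDGF-AA + 3G3 3 were higher and 1 lower. No test compared the compartments. Among 4 tested small heat shock proteins other than HSPB1, CRYAB was at least 2.69-fold lower in Hec-1A under control IgG, the direction of HSPB1, and the other 3 did not pass there. Under PDGF-AA + 3G3 HSPB8, a partner of BAG3, passed as higher in Hec-1A, by at least 1.1-fold (limma adjusted p = 0.00895); it was chosen after its values were seen. None of 3 tested heat shock factors and regulators, HSF1, HSF4 and HSBP1, passed in any line comparison, with HSF1 at -0.17 ± 0.09 under control IgG (adjusted p = 0.17). Beside these, 18 of 25 nuclear respiratory chain genes were lower in Hec-1A under control IgG, and 15 without Hec-1A control IgG replicate 1. Their part in the chaperone differences was not tested.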

How the data were processed

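The authors deposited processed log2 expression values and a non-normalized table of signal intensity for 47231 probes on 18 arrays, exported with BeadStudio per the submitters' processing notes (version not given in the sources used here). Deposited log2 values differed from a quantile normalization of the deposited intensity on the log2 scale by at most 0.0438, and they were the input. Intensities ran from 66.7 to 22228, with a 75th percentile per array of 122.7 to 185.9, and no background was subtracted.

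Groups were the line and treatment in the labels. R 4.3.3 with limma 3.58.1 fitted a model of 6 group means (residual degrees of freedom 12, prior 3.61) to the 32070 probes (67.9%) above their array's median on at least 3 arrays. Moderated two-sided tests gave 12 contrasts, adjusted by Benjamini-Hochberg per contrast. Between the lines, a group mean at or below the array median was raised to it and the fold written as "at least". Of all probes 30113 carried 1 gene symbol, 8 several and 17110 none. Promoters came from RefSeq, GRCh38.p14. Figures used matplotlib 3.10.9 in Python 3.11.15.

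The members and lists were chosen with earlier results of these data known. Named were all member probes, per list up to 3 called genes each way with the largest fold change between the lines under control IgG, and the 5 genes most like HSP90AA1 and HSPA1A. Replicate numbers did not pair the arrays: of 18 same-number pairs 4 had a correlation of deviations over 0.1. Alternatives were other normalizations, normexp background correction, other filters and variance models, a replicate block, every probe of a gene, each line or treatment alone, and leaving out arrays. The model was tested on simulated data.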

Additional observations from a re-analysis of the deposited data

How the results depend on the processing

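Over 120 gene results and 30 alternatives, 3333 of 3558 values kept direction and side of the threshold, 38 lost a call, 38 gained one and 147 changed sign with neither value called. HSPA8 under control IgG and HSPA1B, BAG3 and HSPB1 under all 3 treatments stayed called between the lines in 30 of 30. A pair reversed under control IgG, DNAJB1 to 0.00724 without normalization between arrays and HSP90AA1 to -0.0302 after scaling to a common median, and each of these settings called 4 genes where 7 were called; the cause was not tested. Without normalization the median of all probes shifted by 0.11. Array weights called 7 genes between the lines under PDGF-AA, and in Hec-1A 2 for PDGF-AA and 2 for PDGF-AA + 3G3 against control IgG, with 1 and 2 for the differences between the lines in these effects. A filter at the 75th percentile called 1, HSPA8, for PDGF-AA + 3G3 against control IgG in Hec-1A, over fewer probes. Leaving out 1 array gave 6 to 8, 3 to 6 and 4 to 5 genes between the lines under the 3 treatments, 0 to 2 for PDGF-AA and 0 to 3 for PDGF-AA + 3G3 against control IgG in Hec-1A, 0 to 1 and 0 to 2 for their differences between lines, and 0 elsewhere. Without 4 arrays that stand apart the line counts were 6, 5 and 3, with 1 array left in RL95-2 PDGF-AA + 3G3, assumed to vary like the other groups. The replicate block called 6, 4 and 4 between the lines and 0 elsewhere, and no array correlated best with its own number. Fits of 1 line or treatment alone give no difference between lines. The share of all probes called is not given for these settings, so their counts are not read as results about the chaperones. Signals near the median limit HSPA1A, and signals close to the top of the range limit HSP90AA1. The leading HSPD1 probe, with group means of 13.27 to 13.62, and HSPB1 in RL95-2, with 13.47 to 13.63, read about as high. The same limit applies to both, and to HSPA8 in Hec-1A under control IgG, with a mean of 13.28.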
